A study of Homo sapiens with 6 samples.

Results

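The genes described here are 10 enzymes of phospholipid synthesis. Of these, 7 belong to the Kennedy pathway, which makes phosphatidylcholine and phosphatidylethanolamine: the choline kinases CHKA and CHKB, the ethanolamine kinase ETNK1, the cytidylyl transferases PCYT1A and PCYT2, and the phosphotransferases CEPT1 and CHPT1. The other 3 are the lipins LPIN1 and LPIN2, which make diacylglycerol from phosphatidate, and PTDSS1, which makes phosphatidylserine. The list follows the pathway, and no measured value enters its rule, although it was drawn up with earlier results of these data known. A gene was followed on every probe set that carried its symbol alone, which gave 27 probe sets. These are 10 of the 19775 genes with a probe set of their own, and all 10 were among the 12839 genes tested.

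The cells were Daoy, an established line that was derived from human medulloblastoma. They received 1 µM thapsigargin (Tg) for 3 h or for 8 h, or no treatment. Tg blocks the pump that fills the endoplasmic reticulum (ER) with calcium, and so sets off the unfolded protein response (UPR). RNA was measured on 6 arrays, with 2 per group that the labels number replicate 1 and replicate 2. The same untreated arrays served as the control for both times, and the labels give no vehicle for them. All samples come from 1 cell line in culture.

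Phosphatidylcholine and phosphatidylethanolamine are the main lipids of the ER membrane. In the Kennedy pathway choline or ethanolamine is phosphorylated, joined to CTP by a cytidylyl transferase, and passed on to diacylglycerol in the ER membrane. Stressed cells can enlarge the ER, and forced expression of the spliced form of XBP1 is known to raise the activity of the CDP-choline branch in fibroblasts. The mRNA levels of these enzymes address whether their mRNAs rise along with those of the ER chaperones. They do not measure the activity of the enzymes or the amount of lipid.

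The deposited values were MAS5 signal intensities, scaled by the authors to a common trimmed mean, which was 500.07 to 500.08 on all 6 arrays. Replicate 1 had medians of 84.8 to 103 and replicate 2 of 69.7 to 75.3. Of 13 neural markers 9 were bright enough to be tested. VIM, TUBB3, SOX2 and SOX9 were among these, and the medulloblastoma marker OTX2 only just, at 95.6 to 146.2, while the cerebellar progenitor marker ATOH1 did not exceed 80.8, the glial marker GFAP 28.1 or the synaptic marker SYP 25. Of 6 fibroblast markers 5 were tested, with COL1A1 at 17638.9 to 33447.7, COL3A1 at 2154.7 to 6888.6 and LUM at 243.4 to 898.8, while DCN did not exceed 102.2, so this list did not set the cells apart from fibroblasts. Immune markers were too dim to be tested, and of 6 endothelial markers 3 were tested and 0 passed. At 8 h NEFL, a neuronal filament gene, fell by 1.39 on the log2 scale (adjusted p = 0.0419, limma), and in a fit blocked on the replicate number SOX2 fell by 1.15 (0.0301), SOX9 by 0.80 (0.0169) and LUM by 0.91 (0.0439). The other fibroblast markers tested passed in neither fit and went both ways. COL1A2 (0.76, blocked adjusted p = 0.054 in limma) and DCN (0.16) were higher, and COL1A1 (-0.29) and COL3A1 (-0.39) lower. The part of these markers in the values that follow was not tested. In the same cells 4 of 11 genes on a list of UPR genes rose at 8 h in limma without that block, namely DDIT3, DNAJB9, SDF2L1 and HYOU1. With it 7 rose. The 11 had a median log2 fold change of 1.70. The list also holds SREBF1 and SREBF2, which encode regulators of lipid synthesis, and all 11 are called UPR genes here.

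The promoter sequences of the enzymes were set against those of UPR genes, because many UPR genes carry short motifs read by ATF6 and XBP1. Windows from 250 bases before to 50 after each start site came from RefSeq (GRCh38.p14) and were found for 8 of the 10 enzymes, in 13 windows. CHKA and PTDSS1 had no entry. The ER stress element ERSE (CCAAT and CCACG with 9 bases between them), ERSE-II (ATTGG and CCACG with 1 base between them), the UPR element UPRE (TGACGTGG) and the ATF4 element CARE (TGATGNAAT) were searched on both strands. They lay in 0.0769%, 0.0541%, 0.729% and 0.991% of all 35116 windows, respectively, and in 0 of the 13 windows of the enzymes. The same search found ERSE in HSPA5 and XBP1, and ERSE-II in HERPUD1, HYOU1 and SDF2L1, but UPRE in only 1 of the 11 UPR genes (HYOU1) and CARE in 0 of them. The shorter CCAAT box, a part of ERSE, lay in 34.6% of all windows and in those of CHKB and PCYT2. TGACG, which is a part of UPRE, lay in 24.6% of all windows and in those of ETNK1, LPIN2 and PCYT2. A match in letters is not a bound site, and a missing match says nothing on the factors.

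Shown first is ETNK1, the only enzyme with a call at 8 h in any fit, then CHKB, the only one with both treated arrays below both untreated arrays at 3 h and also at 8 h, and then HSPA5, which encodes the chaperone BiP, and HYOU1, for comparison. Each is read 5′ to 3′ on the gene's strand. Capitals mark TGACG on either strand in ETNK1 (chr12:22624921-22625170, plus strand), the CCAAT box, here on the opposite strand, in CHKB (chr22:50582850-50583099, minus strand), and both parts of ERSE in HSPA5 (chr9:125241344-125241463, minus strand). In HYOU1 (chr11:119057256-119057415, minus strand) they mark 2 ERSE-II matches on the opposite strand, the first of which overlaps the UPRE match.
ETNK1: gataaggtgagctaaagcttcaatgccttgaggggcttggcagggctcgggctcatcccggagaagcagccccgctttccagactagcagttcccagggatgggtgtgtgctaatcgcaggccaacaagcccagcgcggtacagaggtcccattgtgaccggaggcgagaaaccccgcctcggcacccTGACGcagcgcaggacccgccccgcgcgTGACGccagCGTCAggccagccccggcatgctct
CHKB: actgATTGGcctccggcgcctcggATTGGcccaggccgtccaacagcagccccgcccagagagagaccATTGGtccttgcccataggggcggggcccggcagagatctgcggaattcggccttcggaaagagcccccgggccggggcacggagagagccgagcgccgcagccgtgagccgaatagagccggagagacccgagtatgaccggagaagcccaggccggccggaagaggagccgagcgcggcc
HSPA5: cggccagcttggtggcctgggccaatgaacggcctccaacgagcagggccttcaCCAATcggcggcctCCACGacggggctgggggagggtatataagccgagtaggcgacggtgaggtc
HYOU1: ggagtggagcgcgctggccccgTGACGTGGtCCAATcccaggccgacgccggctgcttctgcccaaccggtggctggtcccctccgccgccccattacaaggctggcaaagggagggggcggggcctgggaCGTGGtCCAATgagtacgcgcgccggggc

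None of the 10 enzymes passed the test at either time in limma without the replicate number as a term. The count of enzymes at an adjusted p under 0.05 was 0 at 3 h and 0 at 8 h, and 0 had an unadjusted p under 0.05 at either time. Over all 12839 genes, 0.0701% passed at 3 h and 0.857% at 8 h, so a count of 0 among 10 is also what a share this small gives. Each replicate number held all 3 groups and its arrays deviated together, so the fit was repeated with the replicate number as a block. In this blocked fit 1 enzyme, ETNK1, rose at 8 h, and 0 passed at 3 h, where 1 (LPIN1) had an unadjusted p under 0.05. The blocked fit called 1.25% of all genes at 3 h and 8.54% at 8 h, with 4.76% called higher at 8 h. Thus 1 of 10 enzymes is close to the share among all genes. The local pooled error test, which the study's methods name, called 0 of the enzymes at both times. Of all 27616 probe sets tested it called 51 at 3 h and 267 at 8 h, so 0 among 10 is also what such shares give.

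The median log2 fold change of the 10 enzymes was -0.10 at 3 h and -0.13 at 8 h, beside -0.02 and -0.09 over all genes tested. The sign of these small medians was not stable. At 3 h the median was 0.07 when the probe sets of each gene were averaged, and 0.01 when untreated replicate 2 was left out. At 8 h it was 0.18 when untreated replicate 2 was left out and 0.19 when this was Tg 8 h replicate 1. The median size of the change, without its sign, was 0.20 and 0.22 among the enzymes and 0.22 and 0.29 among all genes. Single changes ran from -0.38 to 0.57 at 3 h and from -0.32 to 0.69 at 8 h. The array measures RNA of the whole culture, so a change in all cells and a larger one in part of them could not be told apart. Since the arrays were scaled to a common trimmed mean, a change in RNA per cell that all genes share would not be seen.

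**Figure D1:**
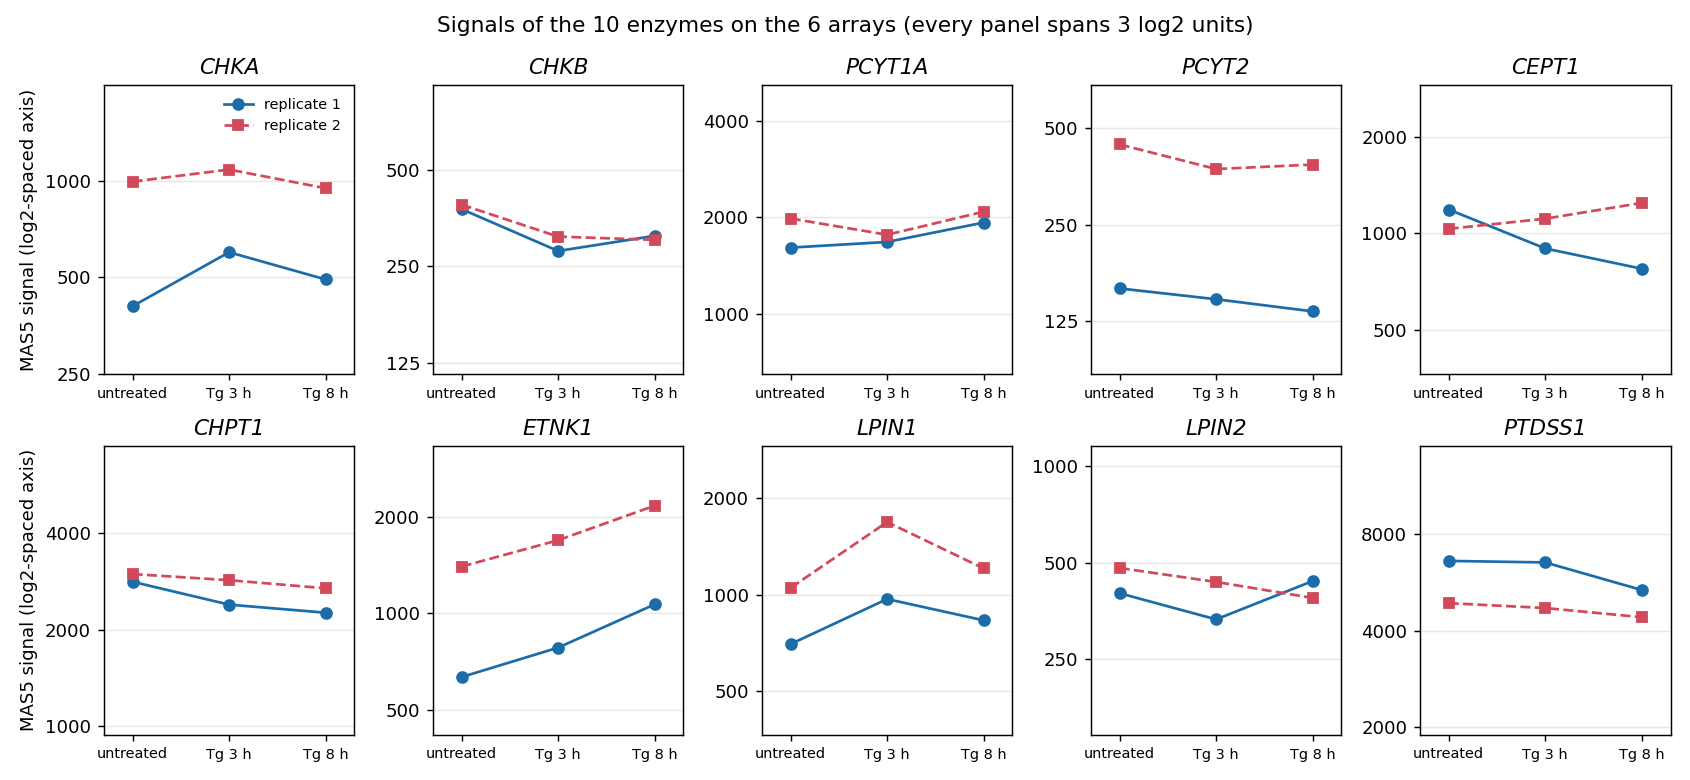
MAS5 signal (vertical axis, log2-spaced, the same span of 3 log2 units in every panel) of the probe set that stands for each of the 10 enzymes, in untreated cells and after 3 h and 8 h of thapsigargin (Tg); circles with solid lines are replicate 1 and squares with dashed lines replicate 2. ETNK1 is higher at 8 h on both replicates, while the 2 replicates lie over 2-fold apart in untreated cells for CHKA, PCYT2 and ETNK1.

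The plot of signals shows each enzyme on the 6 arrays. The spread between replicates limited what could be seen for some of them. The untreated arrays lay over 2-fold apart for 3 of the 10 enzymes, CHKA, PCYT2 and ETNK1, beside 11.6% of all genes tested, and 8 of 10 read higher on replicate 2. The same 3 enzymes had the widest intervals without the block.

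The first step on the choline branch is carried out by CHKA and CHKB. CHKA, whose product is the choline kinase often raised in tumours, read 406.7 and 996.0 in untreated cells (replicates 1 and 2), 599.3 and 1086.0 at 3 h, and 492.9 and 949.8 at 8 h. The groups overlapped at both times, and the 2 replicates differed more from each other than the groups did. Its change at 8 h was 0.10 on the log2 scale (standard error 0.50, 95% interval -1.05 to 1.26, adjusted p = 0.983 in limma). Its other probe set gave 0.01 at 8 h.

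CHKB, the second choline kinase, read 376.9 and 389.3 in untreated cells, 279.0 and 309.4 at 3 h, and 311.0 and 302.2 at 8 h. Both treated arrays lay below both untreated arrays at each time. The log2 fold changes were -0.38 at 3 h (95% interval -0.99 to 0.23) and -0.32 at 8 h (-0.93 to 0.29), with an adjusted p of 0.781 at 8 h in limma and of 0.499 with the block. At 3 h the only enzyme whose arrays did not overlap was CHKB, which is 1 of 10 lower, beside 16.5% of all genes, and 0 of 10 higher, beside 14%. At 8 h 2 of 10 were lower (CHKB and CHPT1), beside 26.7% of all genes, and 0 higher, beside 15.3%. A pattern of this kind was therefore common on these arrays.

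The first step on the ethanolamine branch is carried out by ETNK1, and it was the only enzyme with a call. Its signals were 632.5 and 1400.0 in untreated cells, 781.3 and 1691.5 at 3 h, and 1065.9 and 2168.0 at 8 h. The untreated and 8 h groups overlapped, since replicate 2 was higher than replicate 1 in every group, but each replicate was higher at 3 h than untreated and higher again at 8 h. The log2 fold change at 8 h was 0.75 within replicate 1 and 0.63 within replicate 2, with a mean of 0.69, or 1.62-fold. Without the block this did not pass (standard error 0.51, 95% interval -0.50 to 1.88, adjusted p = 0.743 in limma). In the blocked fit it rose (standard error 0.15, 95% interval 0.36 to 1.03, adjusted p = 0.0242). At 3 h the value was 0.29 (blocked adjusted p = 0.491), and between 3 h and 8 h it was 0.40 (blocked adjusted p = 0.226).

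The call of ETNK1 rested on 1 of its 6 probe sets, the one with the highest signal, 219017_at. The probe set next in signal, 222262_s_at, read 558.0 and 1089.7 untreated and 748.0 and 1286.3 at 8 h, a log2 fold change of 0.33 (blocked adjusted p = 0.298). The other 4 gave -0.06 on 225290_at, -0.08 on 224453_s_at, 0.08 on 224454_at and 0.39 on 226432_at, with blocked adjusted p values of 0.676 to 0.926. With the mean of all 6 probe sets the log2 fold change was 0.22 (blocked adjusted p = 0.576, limma). The call was also lost without untreated replicate 1 (adjusted p = 0.207), untreated replicate 2 (0.106), Tg 8 h replicate 1 (0.188) or Tg 8 h replicate 2 (0.0688), each of which left a group with 1 array, and it held without either Tg 3 h array.

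Over the 6 arrays, with log2 signals centred within each replicate, the genes whose pattern was most like that of ETNK1 were TULP3 (Pearson r = 0.9998), DOC2B (0.999) and NUCB2 (0.9982). These values describe 3 points on each of 2 replicates. They are the highest of a search over the 12839 genes tested, so values near 1 are what the search picks out. ETNK1 was read from 219017_at alone. The log2 fold changes at 8 h differed in size, at 1.88 for TULP3 and 2.44 for NUCB2 beside 0.69 for ETNK1. TULP3 read 1262.5 and 1479.4 untreated and 5195.2 and 4893.2 at 8 h, and NUCB2, a calcium-binding secretory protein, 1024.4 and 1304.8 untreated and 6893.3 and 5707.2 at 8 h. DOC2B was near background in untreated cells, at 11.1 and 16.7.

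The cytidylyl transferases carry out the step that usually sets the rate of each branch. PCYT1A, the choline enzyme, read 1606.3 and 1980.0 in untreated cells, 1672.9 and 1761.9 at 3 h, and 1922.7 and 2079.1 at 8 h. The 8 h arrays overlapped the untreated ones and both lay above the 3 h arrays, a pattern of 1 of 10 enzymes between the 2 times, beside 14% of all genes. The log2 fold change at 8 h was 0.16 (standard error 0.20, 95% interval -0.30 to 0.63, adjusted p = 0.878 in limma), so that a rise of 2-fold lay outside the interval of this probe set. Its other probe sets gave 0.30 (95% interval -0.37 to 0.97) and 0.24 (-0.57 to 1.04) at 8 h, the last of which includes 2-fold. In either fit 0 of its 3 probe sets passed.

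PCYT2, the ethanolamine enzyme, read 158.0 and 445.0 in untreated cells, 146.2 and 372.9 at 3 h, and 134.0 and 385.0 at 8 h. The groups overlapped widely, and both replicates were lower after treatment. The log2 fold change at 8 h was -0.22, with a 95% interval of -1.84 to 1.4 without the block and -0.85 to 0.40 with it (adjusted p = 0.971 and 0.719 in limma). Its second probe set was too dim to be tested, with signals of 11.8 to 94.4.

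The last step is carried out in the membrane by CEPT1, which uses both CDP-choline and CDP-ethanolamine, and by CHPT1, which uses CDP-choline. CEPT1 read 1185.4 and 1031.6 in untreated cells, 896.0 and 1109.5 at 3 h, and 774.5 and 1242.6 at 8 h. The 2 replicates moved in opposite directions, with changes at 8 h of -0.61 on replicate 1 and 0.27 on replicate 2 on the log2 scale. The mean was -0.17 (standard error 0.28, 95% interval -0.81 to 0.46, adjusted p = 0.918 in limma). Of its 3 other probe sets 2 were tested, with -0.56 and 0.24 at 8 h, both on dim signals of 50.1 to 156.

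CHPT1 read 2823.0 and 2984.4 in untreated cells, 2395.4 and 2855.5 at 3 h, and 2260.5 and 2694.5 at 8 h. The 8 h arrays lay below both untreated arrays, and the 3 h arrays overlapped them. Its log2 fold change was -0.23 at 8 h, with a 95% interval of -0.71 to 0.24 without the block and -0.52 to 0.05 with it (adjusted p = 0.802 and 0.345 in limma). A second tested probe set gave 0.11 at 8 h, the opposite sign.

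The lipins supply the diacylglycerol that both branches use. LPIN1 read 701.9 and 1051.6 in untreated cells, 969.9 and 1687.6 at 3 h, and 832.6 and 1209.3 at 8 h. Each replicate was highest at 3 h, although the groups overlapped. The log2 fold change at 3 h was 0.57, the highest of the 10 enzymes at that time. Its 95% interval was -0.22 to 1.37 without the block and 0.22 to 0.93 with it, and neither fit called it (adjusted p = 1 and 0.185 in limma). At 8 h it was 0.22 (adjusted p = 0.913). The other LPIN1 probe sets gave 0.00 and 0.12 at 3 h.

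LPIN2 read 400.8 and 480.6 in untreated cells, 332.2 and 434.8 at 3 h, and 437.5 and 387.7 at 8 h. The groups overlapped, with log2 fold changes of -0.21 and -0.09 (adjusted p = 1 and 0.969 in limma). A second probe set, 202459_s_at, gave 2.18 and 2.35 in its place. It read 10.8 and 220.5 untreated, 234.5 and 208.2 at 3 h, and 193.7 and 319.3 at 8 h, so this difference rested on untreated replicate 1. It passed in neither fit (adjusted p at 8 h 0.576 without and 0.166 with the block).

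PTDSS1, which exchanges the choline of phosphatidylcholine for serine, read 6610.3 and 4878.6 in untreated cells, 6538.9 and 4710.8 at 3 h, and 5365.0 and 4411.5 at 8 h. Both replicates were lower at 8 h, but the groups overlapped. The log2 fold change at 8 h was -0.22 (standard error 0.26, 95% interval -0.81 to 0.37, adjusted p = 0.866 in limma), and -0.49 to 0.04 was its interval with the block.

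**Figure D2:**
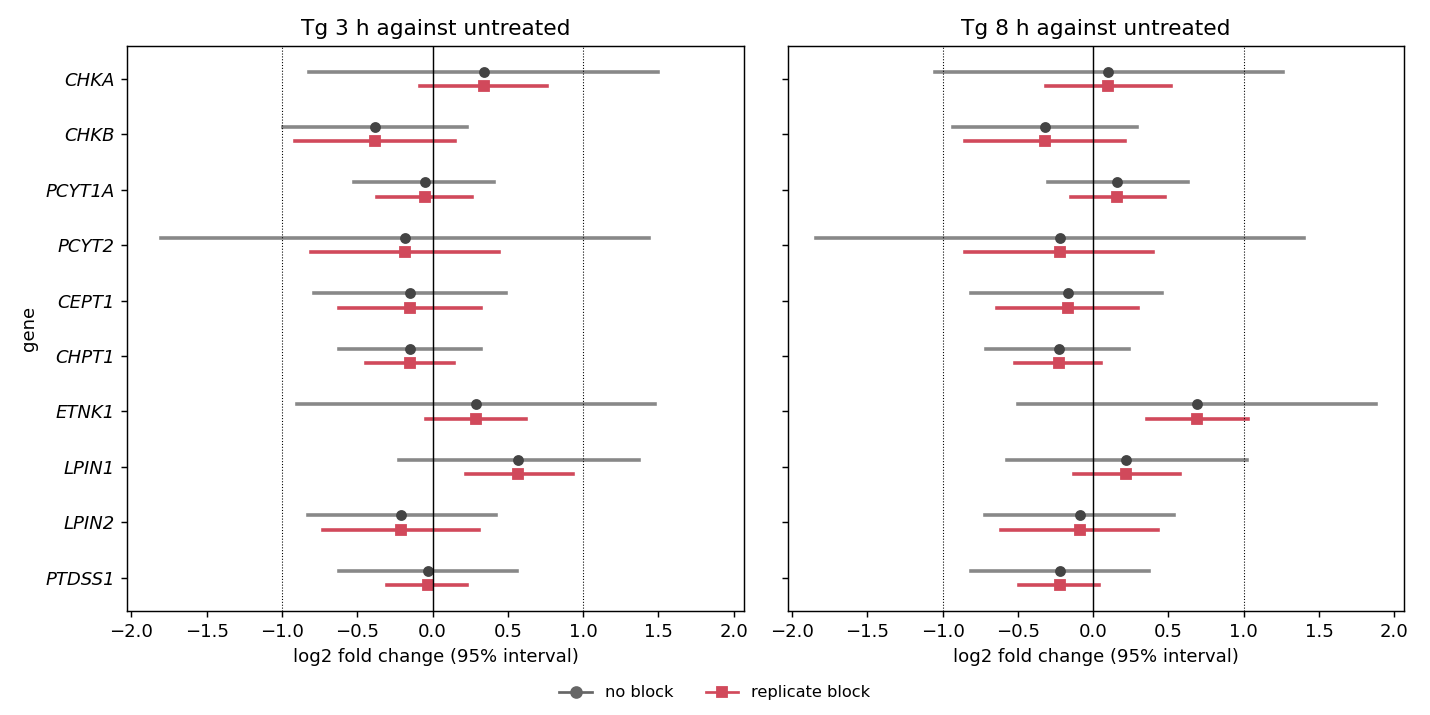
Log2 fold change (horizontal axis) of the 10 enzymes at 3 h (left) and 8 h (right) against untreated cells; grey bars with circles are 95% intervals of limma without the replicate block, red bars with squares those with it, and dotted lines mark a 2-fold change either way. Without the block 6 of 10 intervals lie within 2-fold at each time, and at 8 h the red interval of ETNK1, 0.36 to 1.03, lies above 0.

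The plot of log2 fold changes with their intervals shows how large a change these arrays leave possible. Without the block the 95% interval lay within a 2-fold change either way for 6 of 10 enzymes at 3 h and for 6 of 10 at 8 h. The bounds reached -1.84 and 1.88 at 8 h, for PCYT2 and ETNK1. With the block it lay within 2-fold for 10 of 10 at 3 h and 9 of 10 at 8 h, ETNK1 being the exception with an upper bound of 1.03. A p above the threshold does not show that an enzyme did not change.

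Between 3 h and 8 h, 0 of 10 enzymes differed in limma, with or without the block, and the lowest blocked adjusted p was that of ETNK1. Over all genes 0% differed without the block and 3.25% with it. The enzymes' log2 differences between 8 h and 3 h ran from -0.35 for LPIN1 to 0.40 for ETNK1, with a median of -0.03 beside -0.06 over all genes. The changes of the enzymes at 3 h and at 8 h share the untreated arrays.

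**Figure D3:**
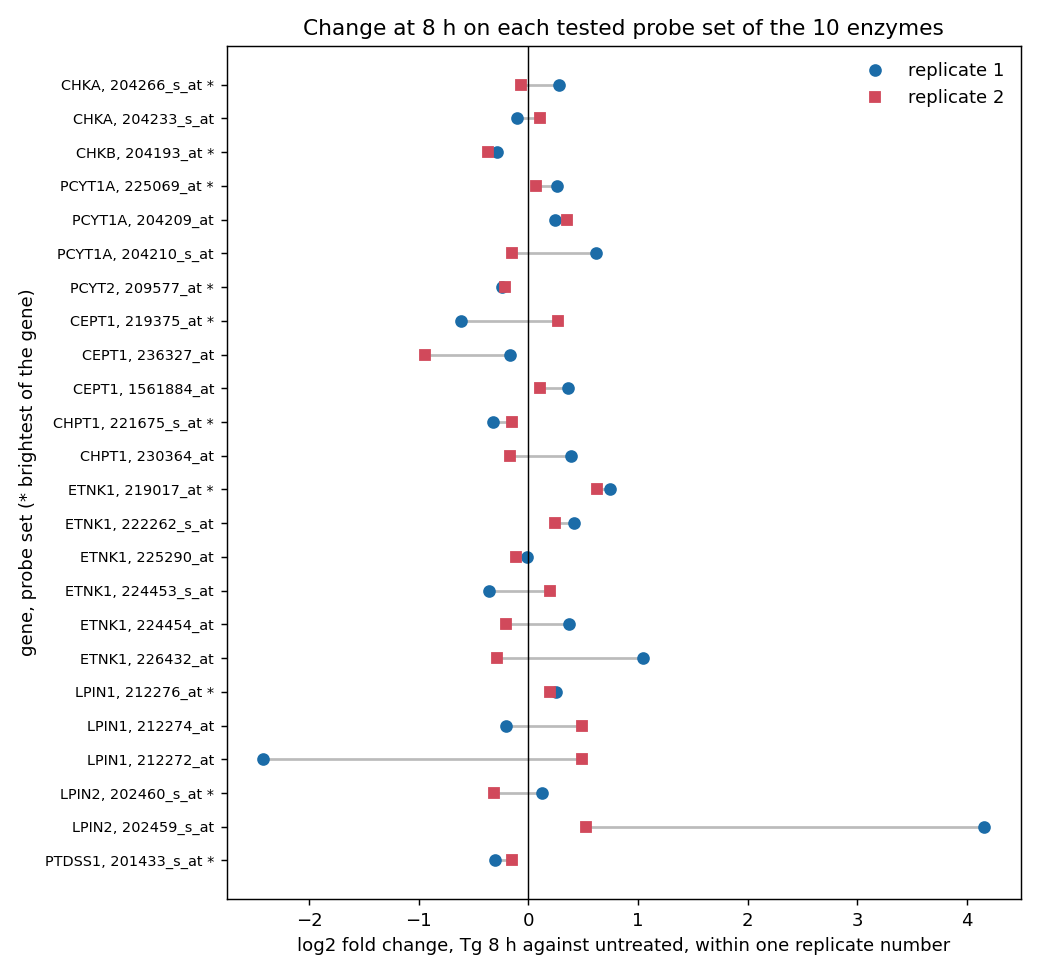
Log2 fold change at 8 h against untreated cells (horizontal axis) within replicate 1 (blue circles) and replicate 2 (red squares) for each of the 24 tested probe sets of the 10 enzymes, with a line joining the replicates and an asterisk at the probe set that stands for the gene. The ETNK1 probe set with the asterisk is the one with 0.75 and 0.63, and the widest gaps belong to dim probe sets of LPIN1 and LPIN2.

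Of the 27 probe sets of the enzymes, 24 were bright enough to be tested and 3 were not, 1 each of PCYT2, CEPT1 and CHPT1. Of the 24, 1 passed at 8 h in the blocked fit, beside 1819 of all 27616 probe sets tested, and 0 without the block, beside 182. The plot of probe sets shows that several probe sets of 1 gene differed in sign. Within replicates, 8 of 10 enzymes had the same sign on both at 3 h, and 7 of 10 at 8 h. The exceptions at 8 h were CHKA, CEPT1 and LPIN2. The share of all genes with the same sign on both was not counted, so nothing is read from this agreement.

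The other genes of phospholipid and neutral lipid metabolism were read from 7 lists with 73 genes, of which 59 were tested. In limma without the block 0 of the 59 passed at either time, while at an unadjusted p under 0.05 the 8 h arrays had 1 higher and 7 lower, and those of 3 h had 2 and 4. The local pooled error test called 0. In the blocked fit 0 passed at 3 h, and at 8 h 1 rose and 5 fell, beside the 8.54% of all genes that this fit called at 8 h, so nothing particular to these lists is read from the count. At 8 h the list medians ran from -0.14 for phosphatidate and diacylglycerol supply to -0.43 for triacylglycerol synthesis and lipid droplets, all below the -0.09 of all genes.

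Of these 6 genes, 4 were on the list of phosphatidate and diacylglycerol supply, the substrates of the lipins and of the last Kennedy step. PLPP1, PLPP2 and PLPP3 encode lipid phosphate phosphatases, which remove phosphate from phosphatidate and related lipids. PLPP1 rose from 1019.6 and 1003.3 to 1908.7 and 1476.0 at 8 h, by 0.73 on the log2 scale (blocked adjusted p = 0.0269). PLPP2 fell from 850.2 and 836.7 to 389.2 and 549.7, with a log2 fold change of -0.87 (0.0320), and PLPP3 from 320.1 and 449.1 to 164.0 and 223.0, with -0.99 (0.0439). The groups did not overlap for any of the 3, a pattern that 15.3% of all genes had higher and 26.7% lower at 8 h. AGPAT5, an acyltransferase that makes phosphatidate and was named after its values were seen, fell by 0.66 on the log2 scale (0.0389).

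Next to these, the choline transporter SLC44A1 fell from 3637.5 and 3187.5 to 2472.3 and 2252.6 at 8 h, by 0.53 on the log2 scale (blocked adjusted p = 0.0345). FITM2, an ER protein needed for lipid droplets to form, fell from 582.2 and 463.0 to 248.1 and 209.1, by 1.19 (0.0162). Without the block these 6 genes had adjusted p values of 0.144 to 0.418. Of 4 further enzymes of the same lipids, namely ETNK2, PCYT1B, SELENOI and PEMT, which makes phosphatidylcholine from phosphatidylethanolamine outside the Kennedy pathway, all were tested and 0 passed. Among them was SELENOI, the phosphotransferase of the ethanolamine branch, which was chosen for mention after its values were seen. It read 1351.0 and 1366.0 untreated and 1680.0 and 2094.9 at 8 h, a log2 fold change of 0.47 (blocked adjusted p = 0.0975). The other 3 had values below 0, with -0.30 for the second ethanolamine kinase ETNK2, -0.36 for PCYT1B and -0.06 for PEMT, and passed in neither fit. The lowest value on the 7 lists was that of DGAT2, on the list of triacylglycerol synthesis. It read 262.7 and 238.9 untreated and 16.4 and 18.6 at 8 h, a log2 fold change of -3.84. In limma it passed in neither fit (adjusted p = 0.198 without and 0.0539 with the block). Its 8 h signals lay below the minimum of 100.

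**Figure D4:**
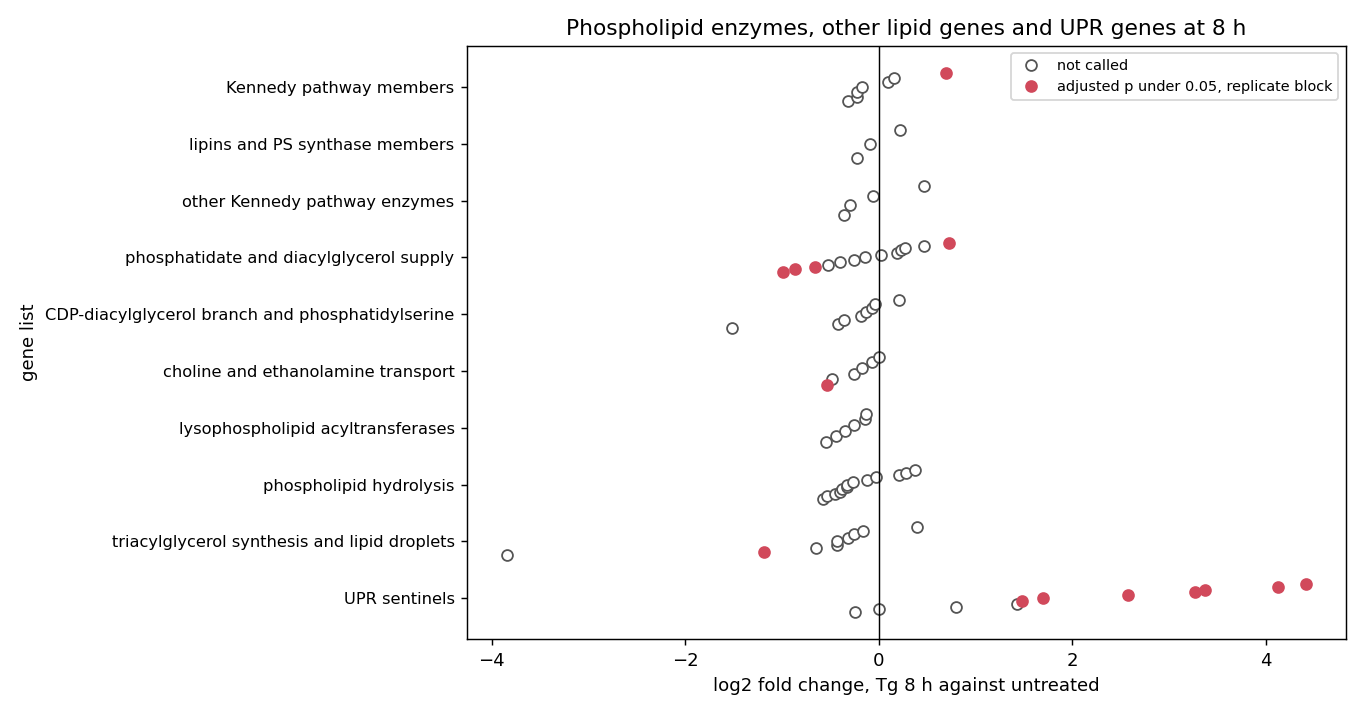
Log2 fold change at 8 h against untreated cells (horizontal axis) of the 10 enzymes (top 2 rows), of the tested genes of the 7 other lipid lists and of 11 UPR genes; each point is a gene, filled where its adjusted p was under 0.05 in limma with the replicate block. The enzymes lie between -0.32 and 0.69, while 7 of the 11 UPR genes are filled, at 1.48 to 4.41; the point at -3.84 is DGAT2, which was not called.

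The plot of lists sets the enzymes beside UPR genes measured on the same arrays. Without the block 4 of the 11 UPR genes rose at 8 h and 1 (DNAJB9) at 3 h, and with the block 7 and 6. HSPA5 read 16614.5 and 18933.2 untreated and 75398.1 and 44209.5 at 8 h, a log2 fold change of 1.70. In limma it passed at 8 h only with the block (adjusted p = 0.12 without and 0.00156 with it). So did HERPUD1, at 3.27 (0.0791 and 0.00596). Changes of this size could thus go uncalled without the block. DDIT3, which encodes CHOP, rose from 405.4 and 1654.4 to 20008.8 and 15123.0 at 8 h, by 4.41 on the log2 scale (adjusted p = 0.0211 in limma). SDF2L1, an ER chaperone partner, rose from 1258.9 and 593.4 to 18180.4 and 12581.2 at 8 h, a log2 fold change of 4.13 (adjusted p = 0.00726 in limma), and DNAJB9, a cochaperone of BiP, by 3.37 (adjusted p = 0.00371). XBP1 read 907.9 and 3018.0 untreated and 4560.0 and 4663.2 at 8 h, by 1.48 higher on the log2 scale (adjusted p = 0.321, with the block 0.0242), and its probe set does not tell the spliced form from the unspliced. SREBF1 and SREBF2, which encode regulators of lipid synthesis, passed in neither fit, with values of -0.25 and 0.00 on the log2 scale at 8 h. The highest value among the 10 enzymes, 0.69 for ETNK1, lay under that of every UPR gene called in either fit. Calls favour large changes, so this says little about the enzymes. Of the UPR genes called in neither fit, ATF4 (1.43) and ATF6 (0.80) lay above 0.69, and SREBF1 and SREBF2 below it.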

How the data were processed

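Daoy RNA was hybridized to Affymetrix arrays of 54675 probe sets, 2 per group. The deposited values are MAS5 signal intensities, which the authors scaled to a common trimmed mean on each array. They were log2-transformed here and fitted with limma 3.58.1 in R 4.3.3 (lmFit on all 6 arrays by group, eBayes with an intensity trend, two-sided). Probe sets entered the fit if at least 2 arrays read 100 or more, which 27616 did, and p-values were adjusted over these by the Benjamini-Hochberg method with a threshold of 0.05. Python 3.11.15, pandas 2.3.3 and matplotlib 3.10.9 served for promoters and figures. The platform annotation gave 41097 probe sets a single symbol, left 11777 without one, and gave 1801 several, which were not used for naming. Symbols of the 10 enzymes were matched to RefSeq by Entrez identifier. Where a gene had several probe sets of its own, the one with the highest mean log2 signal stood for it.

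The paper describes independent experiments, but nothing ties cultures to replicate numbers, so the p-values speak for the spread among the arrays alone. Deviations from the group means were shared by arrays of 1 number, with correlations across probe sets of 0.26 to 0.32 over those tested and of 0.66 to 0.70 over the 12451 whose signals averaged 500 or more. The pairing thus comes from the data, and the blocked fit is given where it changes a call. The test that the methods name (local pooled error) was re-implemented with 100 intensity bins and a spline of 10 degrees of freedom. It called fewer probe sets than the paper reports, whose threshold is not stated. The fits were tested on simulated data.

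The enzymes and lists were chosen with earlier results of these data known. Genes named from other lists were the up to 3 with the largest change at 8 h among those called in either fit, besides the 3 genes most like the enzyme with the lowest blocked p at 8 h. AGPAT5, the 4 further enzymes with SELENOI, DGAT2, HSPA5, HERPUD1, HYOU1, XBP1, ATF4, ATF6, SREBF1, SREBF2 and the markers that were not called lie outside this rule. They were named after their values were seen. The alternatives were the block, the local pooled error test, no trend, quantile normalization, median centring, 4 treatments of dim signals (no filter, a minimum of 200, a floor of 100, a pseudocount of 50), only the 4 arrays compared, the mean of a gene's probe sets, and leaving out each array. The blocked fit under these settings and single probe sets were added after the data had been seen.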

Additional observations from a re-analysis of the deposited data

How the results depend on the processing

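The counts of enzymes called, 0 in each comparison, did not move under any alternative except the replicate block, with which 1 enzyme (ETNK1) passed at 8 h; the block changed no other call of the 10 enzymes at 3 h, at 8 h or between the times. It raised the genes called from 9 to 160 at 3 h, from 110 to 1097 at 8 h, and from 0 to 417 between them. Without the block few of the 27616 probe sets tested were called, namely 15 at 3 h, 182 at 8 h and 0 between the times. With no trend and no block 0 were called in each comparison. A count of 0 among 10 enzymes is also what shares this small give, so that it did not move shows little. In the blocked fit the count of 1 at 8 h became 0 without the intensity trend (ETNK1 adjusted p = 0.218), a setting that called 0 of all probe sets against 1819 with the trend, and with the mean of all probe sets (0.576), and was 0 to 1 on leaving out each array. The median log2 fold change of the enzymes at 3 h, -0.10, was -0.09 with quantile normalization, -0.12 with median centring, 0.07 with the mean of all probe sets and -0.27 to 0.01 on leaving out each array. At 8 h it was -0.13, and -0.07, -0.04, -0.21 and -0.19 to 0.19 in the same order. Median centring moved ETNK1 at 8 h from 0.69 to 0.79.

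Of 340 recomputed log2 fold changes of single enzymes, 1 passed anew (ETNK1) and 22 changed sign, of values that passed in no fit. The other 317 were counted as unchanged, which shows little, since many of them could not change sign. Fold changes were fixed under the block, the local pooled error test, no trend, no filter, the signal minimum and the 4 arrays compared. They were also fixed on leaving out an array outside the comparison. Some values counted as unchanged went to 0, such as LPIN2 at 8 h with quantile normalization and with median centring. With the mean of all probe sets the sign changed for PCYT1A (0.05), CEPT1 (0.08) and LPIN2 (0.99) at 3 h. At 8 h it changed for LPIN1 (-0.20) and LPIN2 (1.13). On leaving out each array, values at 3 h ran from -0.30 to 0.99 for CHKA, -0.28 to 0.86 for ETNK1, -0.27 to 0.20 for PTDSS1, -0.21 to 0.10 for PCYT1A and -0.93 to 0.56 for PCYT2. At 8 h they ran from -0.54 to 0.75 for CHKA, -0.07 to 0.52 for LPIN1, -0.98 to 0.54 for PCYT2, -0.22 to 0.04 for LPIN2 and -0.51 to 0.17 for CEPT1. ETNK1 at 8 h kept its sign but ran from 0.12 to 1.27 without the block. These fits leave a group with 1 array, which is assumed to vary like the others. The cause of these shifts was not tested. The 2 arrays per group limit the precision.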
